A study of Bos taurus with 20 samples.

Results

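Transcript levels in the bovine oocyte were compared with those in the cumulus cells (CC) that surround it. The 8 arrays were taken by their titles, 4 of oocytes and 4 of CC, out of the 20 arrays of the series, and all 22550 genes or transcripts on the array were used. Both groups were immature, taken before in vitro maturation (IVM), from antral follicles of 3 to 6 mm punctured in cow ovaries after slaughter, and neither had received a treatment. The other arrays held theca cells (TH), granulosa cells (GC), and CC after 4 h of IVM. TH and GC entered the fit only to estimate the spread between replicates, and CC after IVM was left out of it. The study used the cell types to ask which follicular cells carry the transcripts of proteins found in follicular fluid vesicles. The age and breed of the cows, how many complexes made up a sample, and how the oocyte was freed of CC are not given in the sources used here, so samples may be pools of several animals. The study calls the 4 samples of a group biological replicates, and the p-values measure the spread between these samples.

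The oocyte and its CC grow as a unit, the cumulus–oocyte complex. CC send processes through the zona pellucida and pass metabolites and cyclic nucleotides to the oocyte through gap junctions, whereas the oocyte secretes growth factors of the TGFB family that shape how CC proliferate and use nutrients. At the end of growth the oocyte holds a large store of maternal mRNA, kept untranslated until maturation and early cleavage, and stays arrested in meiosis under signals from the somatic cells.

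Levels are given as the log2 processed intensity of a gene relative to the 75th percentile of its array, so 0 is a bright but not extreme gene. Differences are the oocyte minus CC on the same log2 scale. A gene counted as above background on an array when at least 1 of its probes passed the scanner software's background test. It counted so in a group when this held on 3 or 4 of its arrays. The level is the median of all its spots, those at background included. The dimmer level of a gene counted in both groups can therefore lie near background, and the size of its difference is then uncertain. For a gene not above background in the dimmer group only a bound on the fold is given, with the dimmest signal that passed the test on an array standing in for its level. Oocyte replicate 2 stood apart, with 49.35% of probes above background against 62.63 to 68.75% on the other oocyte arrays and 58.88 to 62.79% on the CC arrays. Genes at background in both groups had a median level of -6.26 on that array, against -8.78 to -7.95 on the other oocyte arrays and -7.49 to -7.29 on the CC arrays. Replicates correlated at 0.976 to 0.995 within the oocyte and 0.987 to 0.993 within CC over 10012 genes. No probe was saturated.

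The labels were first set against the markers of each cell. GDF9, a growth factor secreted by the oocyte, stood at 4.63, 4.68, 5.16, and 4.98 in oocyte replicates 1 to 4 and at -3.77, -4.41, -4.34, and -2.70 in CC replicates 1 to 4. BMP15, its partner in signaling to CC, stood at 4.13, 4.25, 4.37, and 4.41 against -3.21, -4.48, -4.14, and -2.74. In both genes every oocyte array lay above every CC array, and CC replicate 4 was the highest of the CC arrays. The difference was 8.67 ± 0.37 (SE, limma adjusted p = 1.13e-11) for GDF9, or 406-fold, and 7.93 ± 0.31 (adjusted p = 3.9e-12) for BMP15. ZP3, a zona pellucida glycoprotein, stood at 5.12, 4.57, 5.14, and 5.10 in the oocyte and at -2.55, -3.37, -2.89, and -1.21 in CC. NLRP5, a maternal-effect protein of the oocyte cortex, stood at 6.32, 6.19, 6.36, and 6.46 against -3.64, -3.90, -4.41, and -1.40, which was the largest of these differences at 9.67 ± 0.49 (adjusted p = 7.41e-11). VIM, the intermediate filament of somatic cells, ran the other way, at -0.30, -1.28, -0.55, and -1.28 in the oocyte and at 6.92, 6.81, 6.85, and 7.11 in CC, or 220-fold lower in the oocyte (adjusted p = 2.02e-13). The markers of the oocyte and the somatic marker thus separated the arrays as labeled.

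Each of these genes is read by 60-base probes of the array, and both BMP15 probes and the dimmer ZP3 probe are shown. The BMP15 probes both lie in the transcript at chrX:93971184-93977809 (UMD 3.1), and the ZP3 probes in the transcript at chr25:34960635-34968376. The files give the span of the transcript, not the position of the probe in it.
BMP15, first probe: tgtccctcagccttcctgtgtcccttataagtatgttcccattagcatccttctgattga
BMP15, second probe: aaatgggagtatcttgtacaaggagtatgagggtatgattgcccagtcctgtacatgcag
ZP3: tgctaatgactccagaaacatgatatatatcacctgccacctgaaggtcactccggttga
In CC the first BMP15 probe read -1.40, -1.46, -1.25, and -1.22, and the second -5.02, -7.49, -7.02, and -4.26, above background on only 2 arrays. The difference by the first probe, measured in both groups, was 5.62, and the second gave the same direction with no measured level in CC. The ZP3 probe shown was above background on all 4 oocyte arrays and on 1 CC array, at means of 2.80 and -5.44. The brighter ZP3 probe, not shown, stood at means of 7.17 in the oocyte and 0.43 in CC. It was above background on all 4 arrays of both groups, with a difference of 6.74.

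Transcripts of the oocyte were also read on the CC arrays. Of 67 genes in 5 lists of oocyte genes (secreted factors and zona, subcortical maternal complex, transcription factors, mRNA storage, and the piRNA pathway), 39 were above background in CC and 22 were above it on no CC array. Their summed level on CC arrays was 2.90, 2.91, 2.78, and 3.58% of the oocyte mean. This sum includes genes that were bright in CC, among them TLE6, HSF1, and CNOT7 at mean CC levels of 3.09, 3.28, and 2.50. It is therefore no measure of transcripts restricted to the oocyte, and GDF9, for example, was 406-fold lower in CC. CC replicate 4 gave the highest CC level for 27 of the 39 genes. In the other direction, 11 of 19 genes of cumulus and granulosa identity were above background in the oocyte, and their summed level there was 0.557, 0.437, 0.569, and 0.589% of the CC mean. Over all 22550 genes, 14318 were above background in CC and 15058 in the oocyte. Neither set of markers was thus above background in the other cell more often than genes in general. The part that RNA carried over between the cells plays in any difference was not tested. In bulk samples such as these, fewer cells of a type and less RNA per cell cannot be told apart.

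Markers of other cells of the follicle were read as well. Of 11 theca markers, 8 were lower in the oocyte, none was higher, and 2 were not called, whereas CYP17A1, the androgen-making enzyme of theca, was not above background in either group. Among all genes above background in the oocyte or CC, 39.6% were lower in the oocyte and 42.2% higher. INSL3, a peptide hormone of theca, stood at 4.27, 4.70, 4.38, and 4.79 in CC and at -3.90, -2.42, -3.63, and -2.55 in the oocyte, with no overlap. The summed theca level on the oocyte arrays was 3.76 to 5.41% of the CC mean. How these levels compare with those on the TH arrays is not given here. Of 10 blood and endothelial markers, PTPRC, HBB, PECAM1, CDH5, and EMCN were not above background in either group. The other 5 were read. CD68 and CD14, of macrophages and monocytes, stood at -3.84 to -2.34 and -4.96 to -2.08 in CC and were lower in the oocyte, as was HBA, a globin chain, at 4.63 to 5.58 in CC and 2.94 to 3.16 in the oocyte. CD14 did not pass without CC replicate 3 (-1.55). VWF and TEK, of endothelium, were higher in the oocyte. Their part in the differences below was not tested.

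The oocyte and CC differed across most of the transcriptome. Of the 22550 genes, limma called 63.7% at an adjusted p below 0.05, 7161 (31.8%) higher in the oocyte and 7213 (32.0%) lower. Among the 16566 genes above background in at least 1 of the groups, 81.8% were called, 6990 (42.2%) higher and 6568 (39.6%) lower, and the median difference was 0.09. Among the genes above background in both groups 78.8% were called, 39.2% higher and 39.6% lower. The arrays of the groups did not overlap in 60.4% of all genes and in 80.7% of those above background in at least 1 group. These shares are the background against which the counts of list members below are to be read. The balance of the directions changed with the processing. Without oocyte replicate 2 there were 7128 higher and 11068 lower, with 39.2% of calls in the higher direction. By normexp background correction 5221 were higher and 14744 lower, and by the deposited log2 values 7267 and 12482, with 26.2 and 36.8% of calls in the higher direction against 49.8%. Normexp moved the median of the genes above background by -0.67, the array median by 0.11, and a percentile over detected probes by -0.12. Directions of single genes below are those that held under each of these scalings unless stated.

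**Figure D1:**
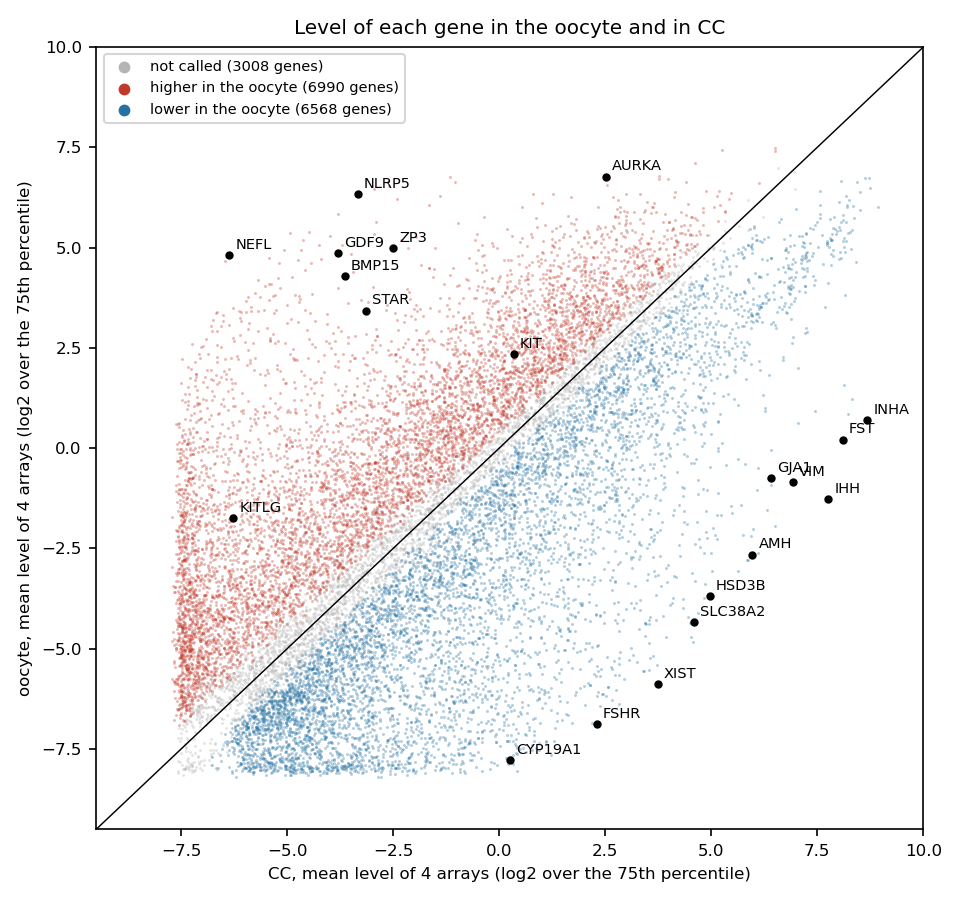
Mean level of each of the 16566 genes above background in the oocyte or CC, with CC on the x axis and the oocyte on the y axis (log2 relative to the 75th percentile of the array, mean of 4 arrays). Red points were higher in the oocyte (6990), blue points lower (6568), gray points were not called, black points are named genes, the line marks equal levels, and oocyte genes such as NLRP5 and GDF9 lie in the upper left and CC genes such as INHA, VIM, and FSHR in the lower right.

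Sizes were large as well as frequent. Of the 16566 genes, 2223 were higher in the oocyte by at least 3 on the log2 scale and 2208 lower by as much. By detection alone, both groups detected 12701 genes, 1346 were detected in the oocyte and on no CC array, and 726 in CC and on no oocyte array. The excess on the oocyte side depended on the rule. Leaving out oocyte replicate 1, 3, or 4 gave 788 to 792 genes of the oocyte. Detection then needed every oocyte array that was left, replicate 2 among them, which is a stricter rule. With all 4 arrays required there were 788 genes of the oocyte and 606 of CC. A looser background mark gave 282 for the oocyte and 268 for CC.

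**Figure D2:**
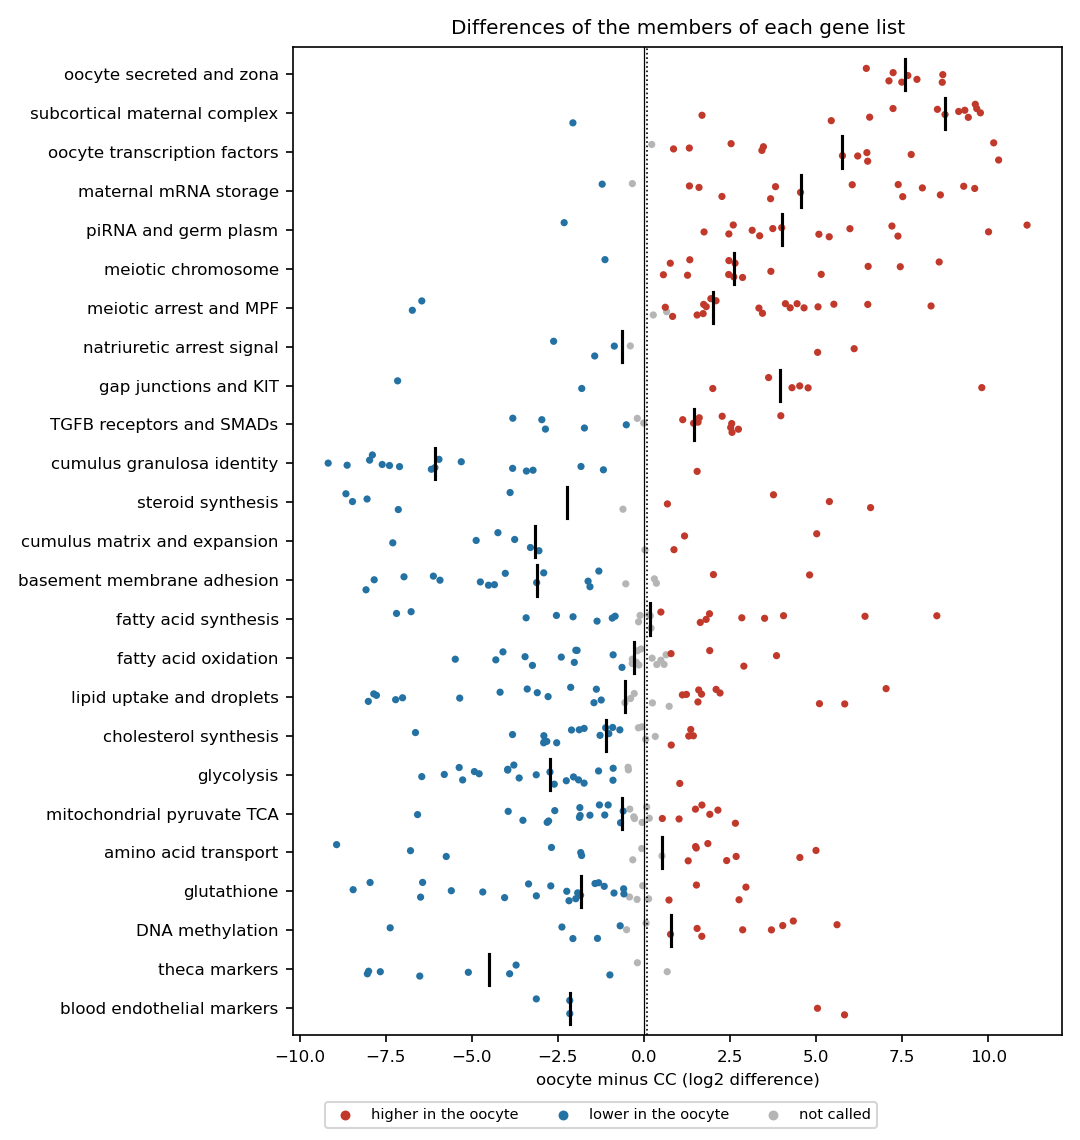
Difference of each member of the 25 gene lists (oocyte minus CC, log2), 1 point per gene above background in either group. Red members were higher in the oocyte, blue lower, gray not called, the black bar is the median of the list, and the dotted line the median of all genes above background (0.09), with the 7 oocyte lists at the top lying mostly to the right, and the cumulus identity, matrix, basement membrane, and glycolysis lists mostly to the left.

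Genes of the egg coat and of secretion by the oocyte were higher in the oocyte. Each of the 8 members above background was called higher, with a median difference of 7.58 beside 0.09 over all genes above background, and FGF8 was not above background in either group. ZP2 and ZP4, zona glycoproteins, differed by 7.24 ± 0.54 and 7.67 ± 0.61 (limma adjusted p = 7.19e-09 and 1.47e-08). OOSP1, a secreted protein of the oocyte, differed by 8.68 ± 0.43. BMP6, a further ligand of the TGFB family, stood at -0.72, -1.05, -1.29, and -1.02 in the oocyte and above background on no CC array, at least 21.0-fold higher in the oocyte. ASTL, the oocyte protease that later hardens the zona, was likewise at least 35.8-fold higher.

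The subcortical maternal complex and other maternal-effect genes followed, with 12 of 13 members higher and a median of 8.75. NPM2, the chaperone that opens sperm chromatin, differed by 9.42 ± 0.69, DPPA3, a protector of the maternal genome, by 9.32 ± 0.50, and KPNA7, an importin of the egg, by 8.52 ± 0.68. OOEP, a member of the complex, stood at 4.79, 4.76, 5.20, and 5.02 in the oocyte and at -0.89, -0.45, -0.37, and -0.29 in CC, so it was also well read in CC. KHDC3L was above background on no CC array, and its level in the oocyte exceeded that in CC at least 477-fold. ZFP57, a guardian of imprints, was the exception, above background on 1 oocyte array and lower by at least 1.79-fold. Its CC levels were -5.32, -5.32, -3.70, and -5.63, near background, and within slide 1 the difference of -1.59 was not called.

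Oocyte transcription factors were higher in 12 of 13 members above background, with a median of 5.77, and SOHLH1 was not called. FIGLA, which switches on zona genes, was at least 736-fold higher, and NOBOX, needed for follicle formation, stood at 3.59, 3.58, 3.48, and 3.64 against -2.36, -2.95, -3.41, and -1.84 in CC. TBPL2, the oocyte form of the TATA-binding protein, was above background on no CC array, with a bound of at least 51.8-fold. FOXR1 had the largest difference of the named genes above background in both groups, 10.30 ± 0.83. POU5F1, a pluripotency factor, was low in the oocyte, at -1.94, -3.02, -2.61, and -2.73, and below background in CC. HSF1, the heat shock factor, differed by only 0.86 ± 0.17 (limma adjusted p = 0.000386), at 4.01 to 4.34 in the oocyte and 3.12 to 3.54 in CC, and the groups did not overlap.

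Factors that store, mask, and remove maternal mRNA were higher in 13 of 15 members (median 4.55). ZAR1, which holds mRNA in the oocyte, stood at 4.84, 4.82, 5.01, and 5.04 against -4.86, -5.72, -5.32, and -2.81 in CC. YBX2, a germ cell RNA-binding protein, differed by 7.52 ± 0.27, EIF4E1B, the oocyte cap-binding protein, by 8.09 ± 0.25, and BTG4, the adaptor for maternal mRNA decay, by 9.29 ± 0.69. CNOT7, a deadenylase used by many cells, differed less, by 2.27 ± 0.14. DDX6, an RNA helicase of processing bodies, was lower in the oocyte by -1.22 ± 0.21 (limma adjusted p = 8.6e-05), at -0.49 to 0.03 against 0.77 to 1.14.

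The piRNA pathway, which silences transposons in the germ line, was higher in 14 of 15 members (median 4.00). GTSF1 stood at 4.41, 4.58, 4.91, and 4.78 in the oocyte and above background on 1 CC array, at least 808-fold higher. MAEL differed by 10.01 ± 0.42, and its CC levels were -5.00, -6.00, -5.97, and -3.35, again highest in CC replicate 4. DDX4, the germ cell helicase, and PIWIL3 were above background on no CC array, with bounds of at least 42.1 and 10.6-fold. TDRD6 was lower in the oocyte, at -4.31, -3.93, -3.87, and -4.07 against -1.69, -1.80, -1.73, and -1.69, a difference of -2.32 ± 0.34.

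Genes of the meiotic chromosome axis and of recombination were read although pairing is long past at this stage. Of 15 members above background 14 were higher (median 2.61), but only 7 under normexp. The genes DMC1, SPO11, HORMAD2, MEIOB, and RAD21L1 were not above background in either group. SYCP3, of the synaptonemal complex, stood at 3.33, 3.53, 3.88, and 3.52 against -5.28, -5.75, -5.18, and -3.83, and SMC1B, a meiotic cohesin, was at least 39.3-fold higher. REC8, also a meiotic cohesin, was lower by -1.13 ± 0.26 (limma adjusted p = 0.00121), but both groups were dim, and the difference of -0.70 within slide 1 was not called.

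Regulators of meiotic arrest and of M-phase promoting factor were higher in 18 of 22 members (median 2.02). CCNB3, a B-type cyclin, stood at 6.43, 6.11, 6.53, and 6.26 in the oocyte and at 1.32, 1.29, 1.07, and 1.42 in CC. CCNB1 and its kinase CDK1 differed by 4.11 ± 0.36 and 1.94 ± 0.38, and AURKA, a spindle kinase, by 4.25 ± 0.31. The 3 genes were above background in both groups, and no oocyte array overlapped a CC array. The WEE kinases, which hold CDK1 inactive, were split. WEE2 stood at 1.75, 1.70, 1.62, and 2.01 in the oocyte and above background on 1 CC array, at least 142-fold higher in the oocyte. WEE1 stood at -0.64, -0.09, -0.67, and -0.65 in CC and above background on 1 oocyte array, at least 42.0-fold lower in the oocyte. CDC25C, the phosphatase that activates CDK1, differed by 5.52 ± 0.31.

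Cyclic AMP keeps the oocyte arrested. PDE3A, the phosphodiesterase that degrades it in the oocyte, stood at -2.62, -2.65, -2.70, and -2.63 there and above background on 1 CC array, at least 6.78-fold higher. GPR3, the receptor that drives its production, was dim, at -4.43, -5.73, -5.57, and -5.01 in the oocyte and above background on no CC array. Its bound was only 1.17-fold, and its direction turned under normexp (-0.68). PRKAR2B, a regulatory subunit of protein kinase A, was lower in the oocyte by -6.45 ± 0.17 (limma adjusted p = 8.89e-14), at 2.02 to 2.25 in CC. WEE1 and PRKAR2B were the 2 members lower in the oocyte, and GPR12 and ADCY3 were not called.

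Cyclic GMP made in the somatic cells adds to the arrest by holding PDE3A inactive. NPPC, the ligand, did not pass the test (-0.40 ± 0.42, adjusted p = 0.411), at -5.46, -4.77, -7.00, and -6.89 in the oocyte and at -5.68, -5.74, -5.55, and -5.57 in CC. The oocyte arrays lay on both sides of the CC arrays, above them on slide 1 and below on slide 2. NPR2, its receptor and the guanylyl cyclase itself, stood at -3.78, -3.88, -4.17, and -4.62 in CC and above background on 2 oocyte arrays, at least 3.27-fold lower in the oocyte. IMPDH2, which makes guanine nucleotides, was lower by -0.86 ± 0.18, with -0.98 to -0.29 across the alternatives, 1 of which did not call it. PDE5A, which degrades cyclic GMP, and PRKG1, the kinase it activates, were above background on 1 and on no CC array, and at least 22.7 and 16.6-fold higher in the oocyte.

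Ligand and receptor pairs between the cells came next. KIT, the receptor tyrosine kinase of the oocyte, stood at 2.34, 2.41, 2.31, and 2.28 in the oocyte and at 0.18, 0.90, -0.05, and 0.31 in CC, 4.00-fold higher (2.00 ± 0.27, limma adjusted p = 7.27e-06). KITLG, its ligand and in textbook accounts a granulosa product, stood at -1.91, -1.72, -1.60, and -1.75 in the oocyte and at -6.08, -6.96, -6.08, and -5.96 in CC, above background on 1 CC array. It was at least 12.7-fold higher in the oocyte, and each of its 4 probes was above background on all 4 oocyte arrays and on 1 CC array at most. The KITLG probes overlap in sequence and read the same stretch of the transcript, so they are not independent, and other parts of it were not read. Both sides of the pair were thus higher in the oocyte on these arrays.

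Receptors and SMAD transducers of the TGFB family were higher in 10 and lower in 5 of 17 members (median 1.44), with 6 higher under normexp. The type I receptors were higher in the oocyte, among them ACVR1 at 1.02 to 1.19 against -3.07 to -2.62, BMPR-IA at 1.16 to 1.51 against -1.37 to -1.10, and TGFBR1 at -2.92 to -2.57 against -5.59 to -4.63. BMPR1B, a receptor of BMP15, differed by 2.55 ± 0.24. AMHR2, the receptor of AMH, and ACVR2A, a type II receptor of activins, were above background in CC and on no oocyte array, at least 4.35 and 3.48-fold lower in the oocyte. The SMADs were split. SMAD1 and SMAD3, which carry the signal, were higher by 2.74 ± 0.14 and 2.52 ± 0.14, and SMAD4, the shared partner, was lower by -2.86 ± 0.14, at -0.29 to 0.20 in the oocyte and at 2.74 or above on each CC array.

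Connexins build the channels between the cells. GJA1, the connexin of granulosa and CC, stood at -1.12, -0.66, -0.48, and -0.76 in the oocyte and at 6.53, 6.36, 6.38, and 6.34 in CC, 143-fold lower in the oocyte. GJA4, the oocyte connexin in mice, stood at -0.18, -1.36, -1.21, and -1.19 against -5.23, -5.44, -5.24, and -5.22. GJC1 differed by 4.77 ± 0.16. Of the 8 members of the junction and KIT list, 6 were higher and 2 lower in the oocyte (median 3.96).

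**Figure D3:**
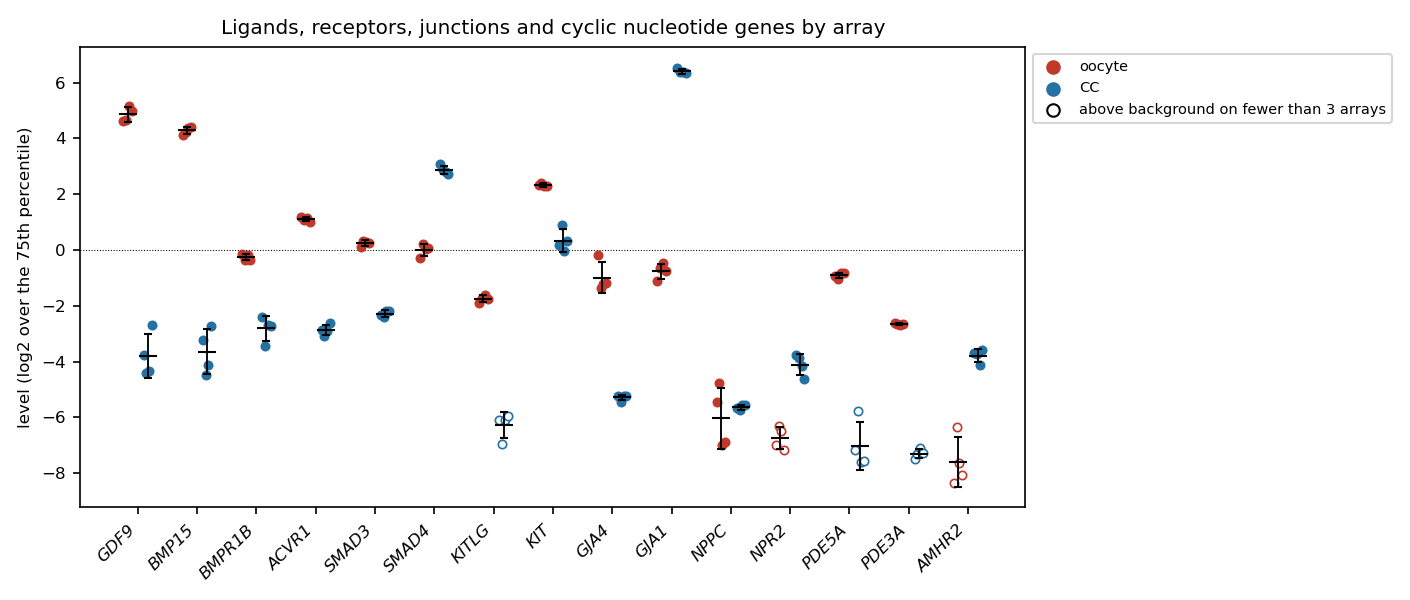
Level of ligands, receptors, SMADs, connexins, and cyclic nucleotide genes on each of the 4 oocyte arrays (red) and 4 CC arrays (blue), log2 relative to the 75th percentile. Bars are the mean and SD of 4 arrays, and open points mark a group above background on fewer than 3 arrays. GJA1, SMAD4, NPR2, and AMHR2 are higher in CC, NPPC overlaps, and the other 10 genes are higher in the oocyte.

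Genes that mark cumulus and granulosa cells were lower in the oocyte in 16 of 17 members above background (median -6.07). FSHR, the receptor of FSH, stood at 2.42, 2.04, 2.38, and 2.35 in CC and above background on 2 oocyte arrays, at least 284-fold lower in the oocyte. AMH, the hormone of growing follicles, stood at 5.93, 6.05, 5.78, and 6.11 in CC and at -2.25, -3.15, -2.61, and -2.60 in the oocyte. INHA and INHBA, the subunits of inhibin, and FST, which binds activin, were bright in CC. INHA differed by -7.97 ± 0.25, INHBA by -7.10 ± 0.36, and FST by -7.89 ± 0.25 (limma adjusted p = 4.1e-13, 8.03e-11, and 4.11e-13). The 3 genes nevertheless lay near 0 or above in the oocyte, with INHBA at 1.04 to 1.51. GATA4, a transcription factor of somatic gonadal cells, was lower by -7.39 ± 0.18, and FOXL2 and NR5A2 were lower by at least 10.4 and 114-fold. WT1 was the exception, dim in both groups and higher in the oocyte by at least 2.68-fold, and its direction turned under normexp (-0.21). ESR1 and LHCGR, the LH receptor, were not above background in either group.

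Genes of steroid synthesis went both ways. Some of the enzymes were lower in the oocyte. CYP11A1, which cuts the cholesterol side chain, stood at 2.51, 2.88, 2.73, and 3.13 in CC and at -6.18, -4.92, -5.94, and -5.58 in the oocyte. HSD3B and HSD17B1 were lower in the oocyte by -8.66 ± 0.43 and -7.14 ± 0.35, and CYP19A1, the aromatase, by at least 71.6-fold. The oocyte carried STAR, the protein that brings cholesterol into mitochondria, at 3.34, 3.52, 3.53, and 3.32 against -3.89, -3.81, -3.10, and -1.81 in CC. It was 95.9-fold higher in the oocyte (6.58 ± 0.64, limma adjusted p = 1.84e-07), and CC replicate 4 was again the highest CC array. By the STAR probe above background on all 4 arrays of both groups, the difference was 6.34. The other STAR probe gave 7.02 but was above background on 1 CC array only. FDX1, the electron donor of CYP11A1, differed by 3.76 ± 0.19, and NR0B1, a repressor of steroidogenic genes, by 5.39 ± 0.27. Of 10 members above background, 4 were higher, 5 lower, and POR was not called. Among all genes above background in either group, 42.2% were higher and 39.6% lower, so the count did not set the list apart.

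Matrix and expansion genes of the cumulus were lower in the oocyte in 6, higher in 3, and not called in 1 of 10 members above background (median -3.18). The other 7 members on the array were not above background in either group, among them AREG and EREG, the EGF-like ligands. HAS2, which makes the hyaluronan of cumulus expansion, stood at -0.44, -0.47, -0.71, and -0.56 in the oocyte and at -5.13, -6.31, -4.79, and -6.02 in CC, above background on 2 CC arrays and at least 23.9-fold higher in the oocyte. VCAN, a proteoglycan that binds hyaluronan, was lower in the oocyte by -3.30 ± 0.23, SERPINE2, a protease inhibitor of CC, by -4.88 ± 0.16, and PTX3, a hyaluronan linker, by -3.76 ± 0.59. BTC, an EGF-like ligand, was at -0.77 to -0.15 in CC and on no oocyte array, at least 44.1-fold lower in the oocyte.

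Basement membrane and adhesion genes were lower in the oocyte in 14 of 19 members (median -3.12). COL4A3, a type IV collagen, was lower by -6.97 ± 0.21, SPARC, a collagen-binding protein, by -7.84 ± 0.33, and CDH2, N-cadherin, by -8.08 ± 0.28. LAMA1, a laminin chain, was above background on no oocyte array and at least 15.1-fold lower. NID2, which links laminin to collagen, was the reverse, at 2.43, 2.55, 2.57, and 2.57 in the oocyte and -2.48, -3.38, -2.07, and -1.19 in CC. FN1, fibronectin, was called higher in the oocyte (2.02 ± 0.63, limma adjusted p = 0.0107), at -0.10 to 0.30, but its CC level was -2.86 and -2.92 on slide 1 and -0.90 and -0.92 on slide 2. The FN1 difference was 2.95 within slide 1 and 1.09 within slide 2, and by analysis of variance with Tukey's test FN1 did not pass. Collagens of fibroblasts and theca split CC in the same way. COL1A2 stood at -6.00 and -4.29 on slide 1 and -1.42 and -1.29 on slide 2, and COL3A1 at -3.75 and -5.05 against -1.95 and -2.23. The part of the slide or of other cells in FN1 was not tested.

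Among 22 members of fatty acid synthesis, 9 were higher, 8 lower, and 5 not called (median 0.16), shares near those of all genes above background, so the list as a whole did not stand apart and its genes are given singly. ELOVL4, which elongates very long chains, stood at 3.78, 3.92, 3.66, and 3.78 in the oocyte and at -4.50, -5.40, -5.21, and -3.78 in CC, 364-fold higher. ACSL3 and ACSL5, which activate fatty acids, differed by 3.50 ± 0.15 and 6.42 ± 0.62. The desaturases lay in CC. FADS2 stood at 2.62, 3.12, 2.72, and 3.18 in CC and at -4.34, -4.59, -4.21, and -3.97 in the oocyte, and SCD in the oocyte lay below CC by at least 59.3-fold. FASN, fatty acid synthase, was lower by -3.42 ± 0.62 (limma adjusted p = 0.000142), with a wide spread in both groups, at -6.88 to -4.19 in the oocyte and -2.68 to -0.24 in CC.

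Lipid storage and uptake had 10 higher, 14 lower, and 5 not called among 29 members (median -0.55). The droplet genes CIDEA and PLIN2 were higher in the oocyte. CIDEA stood at 1.99, 2.33, 2.27, and 2.27 against -5.25, -5.71, -4.21, and -4.10, and PLIN2 at 2.45, 2.33, 2.53, and 2.34 against -0.25, -0.07, 0.51, and 0.64. CIDEC, a droplet fusion protein, stood at -2.24 to -1.79 in the oocyte and was above background on no CC array, and the fatty acid carriers FABP5 and FABP3 differed by 5.83 ± 0.51 and 2.10 ± 0.26. In CC lay SCARB1, a receptor of lipoproteins (-7.01 ± 0.20), the apolipoproteins APOA1 (-7.85 ± 0.34) and APOE (-7.21 ± 0.37), and LPL, lipoprotein lipase, at least 92.6-fold lower in the oocyte. The lipase PNPLA2 and its inhibitor G0S2 were both lower in the oocyte, by -2.13 ± 0.38 and -8.01 ± 0.40. PLIN5, the droplet coat at mitochondria, was lower by -5.35 ± 0.20 and CD36, a fatty acid receptor, by -3.39 ± 0.44.

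Fatty acid oxidation was the list with the largest number of members not called, 11 of 26, beside 4 higher and 11 lower (median -0.28), with 9 higher in the deposited log2 values. CPT1A, the gate of mitochondrial entry, was higher in the oocyte, at -1.53, -1.20, -1.52, and -0.94 against -4.04, -4.54, -3.91, and -4.30. PPARGC1A, a coactivator of mitochondrial genes, was at least 6.70-fold higher. Some enzymes of the later steps were lower in the oocyte, among them ECI1 by -5.48 ± 0.30, DECR1 by -3.46 ± 0.18, and ACADS by -3.24 ± 0.26. Others of these steps were not called.

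**Figure D4:**
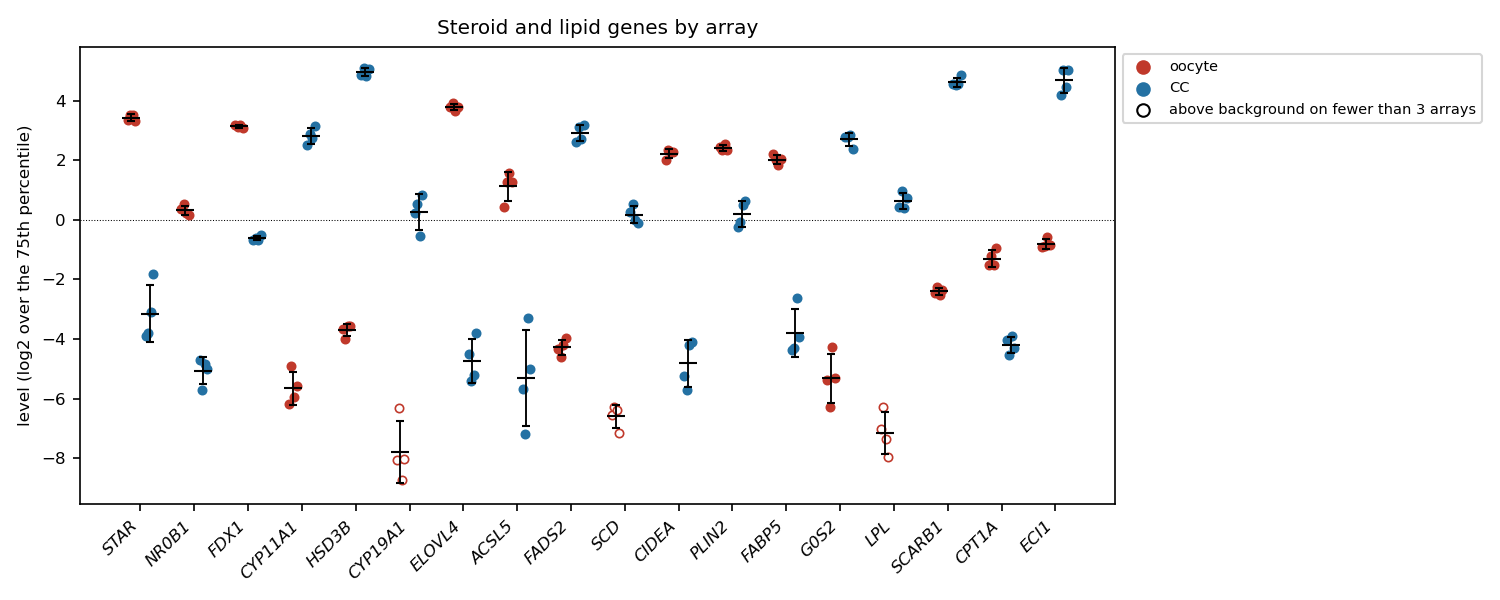
Level of steroid and lipid genes on each of the 4 oocyte arrays (red) and 4 CC arrays (blue), log2 relative to the 75th percentile. Bars are the mean and SD of 4 arrays, and open points mark a group above background on fewer than 3 arrays. STAR, NR0B1, FDX1, ELOVL4, ACSL5, CIDEA, PLIN2, FABP5, and CPT1A are higher in the oocyte and the other 9 genes higher in CC, with no overlap in any of them.

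Cholesterol synthesis was lower in the oocyte in 15 of 23 members and higher in 4 (median -1.11). SQLE and LSS, of the later steps, were lower by -3.82 ± 0.27 and -2.90 ± 0.23, and HSD17B7 by -6.64 ± 0.24. HMGCS1, of the early steps, was higher by 1.36 ± 0.24 and GGPS1, which leads away from sterols, by 1.43 ± 0.15 (limma adjusted p = 0.000111 and 2.9e-07).

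Glycolysis gave the most one-sided of the metabolic lists, with 20 of 23 members lower in the oocyte and 1 higher (median -2.73). PGK1 stood at 0.82, 0.98, 1.20, and 0.99 in the oocyte and at 5.88, 6.42, 6.22, and 6.55 in CC. ENO1, enolase, was lower by -3.78 ± 0.18 but remained bright in the oocyte, at 4.53 to 4.77, and PFKL, a phosphofructokinase, was lower by -5.37 ± 0.34. Glucose transporters SLC2A1 and SLC2A3 were lower by -2.05 ± 0.17 and -5.80 ± 0.31, and SLC16A3, which exports lactate, by -6.46 ± 0.34. LDHA, lactate dehydrogenase, did not pass the test at -0.46 ± 0.27 (limma adjusted p = 0.143). It stood at 5.80, 5.63, 5.76, and 5.86 in the oocyte and at 5.93, 6.45, 6.19, and 6.34 in CC, and its sign turned under quantile normalization (0.86) and in the deposited log2 table (0.093). SLC16A1, which imports lactate and pyruvate, was the member higher in the oocyte (1.04 ± 0.21). GAPDH was not above background in either group, and whether its probes match the expressed transcript could not be checked, so no level is drawn from them.

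Pyruvate use and the citric acid cycle were mixed, with 7 higher, 15 lower, and 6 not called of 28 (median -0.64). CS, citrate synthase, stood at 5.94 to 6.48 in the oocyte and at 3.86 to 4.26 in CC, 2.15 ± 0.19 higher. MPC1, of the pyruvate carrier, was higher by 1.91 ± 0.20, whereas SDHA and IDH2 were lower by -2.59 ± 0.20 and -3.94 ± 0.16. The kinases that switch off pyruvate dehydrogenase were split, PDK3 being higher by 2.66 ± 0.18 and PDK4 lower by at least 36.9-fold.

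Amino acid transporters had 8 higher, 6 lower, and 3 not called of 17 (median 0.52), again near the shares of all genes above background, and 4 higher under normexp. SLC1A5 and SLC1A4, carriers of neutral amino acids, stood at 5.12 to 5.57 and 2.39 to 2.87 in the oocyte and at 0.07 to 0.58 and -2.09 to -1.64 in CC. The SLC38 family had 3 members lower in the oocyte, and SLC38A3 was not called. SLC38A2 stood at 4.67, 4.43, 4.78, and 4.50 in CC and at -4.16, -4.92, -3.93, and -4.33 in the oocyte, 488-fold lower, SLC38A5 was lower by -5.74 ± 0.27, and SLC38A1 by at least 61.6-fold.

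The glutathione and thioredoxin system was lower in the oocyte in 21 of 29 members and higher in 4 (median -1.84). GPX1, a peroxidase, stood at 0.49, 0.25, 0.98, and 0.75 against 6.98, 7.04, 6.97, and 7.21 in CC. GSTA1, a glutathione transferase, was lower by -8.45 ± 0.29, and GPX3, the secreted peroxidase, was above background on no oocyte array and at least 74.2-fold lower. GSR, which regenerates glutathione, and MGST2, a microsomal transferase, were higher by 2.76 ± 0.19 and 2.96 ± 0.31.

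DNA methylation genes were higher in 8 and lower in 5 of 15 members (median 0.77), beside 42.2 and 39.6% of all genes above background. DNMT1, the maintenance methyltransferase, stood at 5.02, 5.26, 5.29, and 5.41 against 3.42, 3.64, 3.52, and 3.70, and its partner UHRF1 differed by 4.34 ± 0.39. DNMT3B, a de novo methyltransferase, was above background on no CC array and at least 15.7-fold higher, whereas DNMT3A overlapped, at -1.96 to -1.82 against -2.10 to -1.81 (0.06 ± 0.29, limma adjusted p = 0.857), and its sign turned with the scaling. MBD4 and TDG, glycosylases that act on the same mismatches, went opposite ways. MBD4 stood at 3.27 to 3.35 in the oocyte and -0.80 to -0.61 in CC, and TDG at 1.06 to 1.26 in CC and above background on 2 oocyte arrays, at least 114-fold lower in the oocyte. TET1, a demethylating dioxygenase, was lower by -2.38 ± 0.24.

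Beyond the lists, the 12 genes with the largest difference in each direction were taken among named genes above background in both groups. Those higher in the oocyte included FAM154A (9.87 ± 0.55), CCDC135 (9.48 ± 0.55), MYO5B, a vesicle motor (9.43 ± 0.47), and ILDR1 (9.16 ± 0.34), beside oocyte genes already named. By bound, NEFL, a neurofilament chain, was at least 940-fold higher, and PHYHIPL, PDE6C, SEZ6, and GATA2 at least 814, 650, 557, and 529-fold. NEFL stood at 4.63, 5.04, 4.63, and 4.97 in the oocyte and was above background on 1 of 4 CC arrays. These genes were not members of the oocyte lists.

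Lower in the oocyte, XIST, the RNA of the inactive X chromosome, had the largest difference of named genes above background in both groups (-9.62 ± 0.34). XIST stood at 3.93, 3.46, 3.77, and 3.78 in CC and -6.99, -5.36, -5.24, and -5.93 in the oocyte. It was above background on 3 oocyte arrays, near the dimmest signal that passed the test, so the size of its difference is uncertain. IHH, a hedgehog ligand, stood at 7.86, 7.86, 7.68, and 7.65 in CC and at -1.33, -1.18, -1.08, and -1.47 in the oocyte. MYC, PTGES, the prostaglandin E synthase, and TGM2, a transglutaminase, differed by -8.86 ± 0.39, -8.79 ± 0.49, and -8.79 ± 0.35. BOLA, a class I histocompatibility name, differed by -8.93 ± 0.35 and NCOA7 by -8.80 ± 0.25. By bound the greatest were TUSC3, PROS1, FSHR, and QPRT, at least 341, 327, 284, and 269-fold lower in the oocyte.

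Because a gene was read as the median of its spots, probes of 1 gene that disagree were counted. Of 21623 genes with at least 2 probes, 477 (2.21%) had a probe called higher and another called lower in the oocyte. With both probes above background in both groups it was 204 of 9221 (2.21%). Of the 6 largest gaps, U6, 7SK, H2B, and SNORA31 are names shared by many loci (1754 probes for U6). The other 2 are PDHA1 and GNAS, and SOCS6 and TLE6 are shown beside them, chosen after their values were seen. The coding stretches read by the opposed SOCS6 probes and by a probe each of GNAS and TLE6 are printed because their levels depend on the stretch.
SOCS6, lower in the oocyte: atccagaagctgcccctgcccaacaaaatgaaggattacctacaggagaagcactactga
SOCS6, higher in the oocyte: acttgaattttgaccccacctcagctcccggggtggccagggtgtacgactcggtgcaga
GNAS, lower in the oocyte: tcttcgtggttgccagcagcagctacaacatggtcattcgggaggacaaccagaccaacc
TLE6, lower in the oocyte: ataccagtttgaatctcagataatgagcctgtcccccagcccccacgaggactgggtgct
SOCS6, a suppressor of cytokine signaling at chr24:7303047-7304704 (UMD 3.1), read 1.03, 0.85, 1.36, and 1.22 in the oocyte and 4.34, 4.64, 5.31, and 5.27 in CC by the first probe, a difference of -3.78. By the second it read 1.27, 0.96, 1.10, and 1.18 against -4.53, -4.07, -4.90, and -4.23, a difference of 5.56.

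PDHA1, a subunit of pyruvate dehydrogenase at chrX:130874454-130897343, read -4.27, -4.27, -3.72, and -4.01 in the oocyte and 2.39, 2.37, 2.20, and 2.47 in CC by 1 probe, and -0.62, -0.43, -0.59, and -0.42 against -4.57, -5.04, -5.07, and -4.74 by the other. The gene median of -1.04 stood between probe differences of -6.43 and 4.34 and described neither. GNAS, the G protein that activates adenylyl cyclase, had probes in opposite directions, which followed the span of their annotated transcript. The spans share an end, and where each probe lies in them is not given. Whether the choice of transcript sets the directions was not tested. The probes of the transcripts at chr13:58010287-58049012 were lower by -7.39 and -6.84, and those of the transcripts at chr13:58019524-58049012 higher by 2.31 and 2.39. TLE6, a member of the subcortical maternal complex at chr7:22019474-22023366, was higher by 5.18 by 1 probe and lower by -1.86 by the other, and its gene-level difference of 1.69 lay between them.

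**Figure D5:**
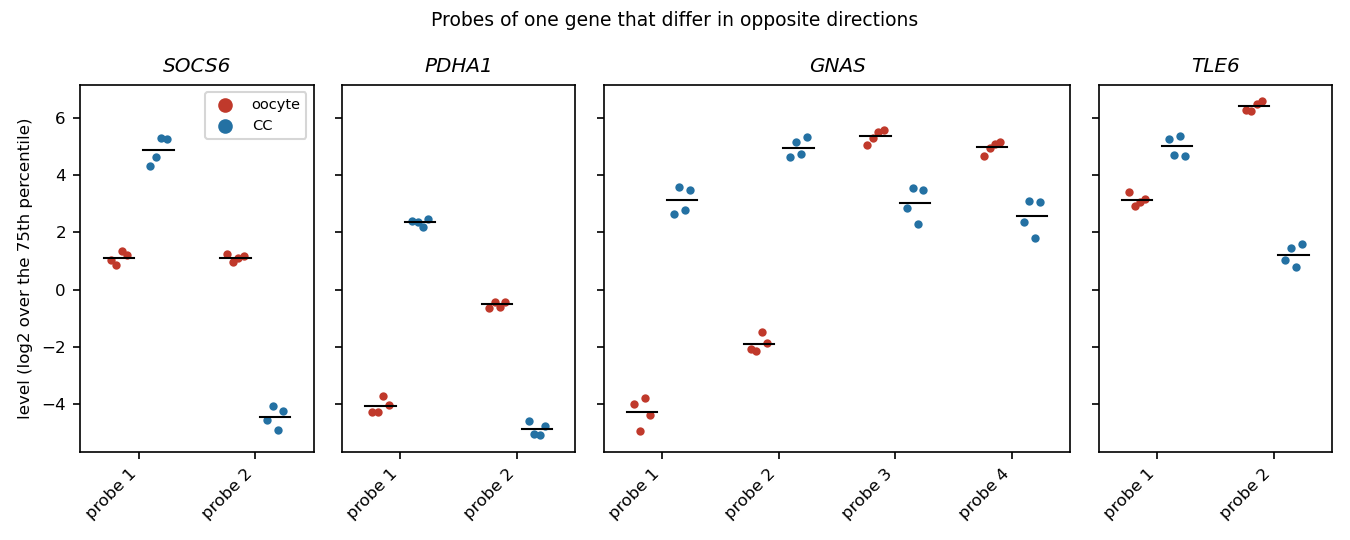
Level of each probe of SOCS6, PDHA1, GNAS, and TLE6 on the 4 oocyte arrays (red) and 4 CC arrays (blue), log2 relative to the 75th percentile, with bars at the mean of 4 arrays. In each gene at least 1 probe lies higher in the oocyte and 1 lower, from -7.39 to 2.39 in GNAS and from -3.78 to 5.56 in SOCS6.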

How the data were processed

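Bovine custom 60K Agilent arrays were hybridized in 1 color with Cy3-labeled cRNA. The authors deposited, per array, scanner output of Agilent Feature Extraction 10.7.3.1 (version from the submitters' processing notes), in which intensity is the processed signal after background subtraction, not normalized between arrays. Probes were annotated on UMD 3.1. They also deposited a log2 table, which equals log2 of the median signal minus the array median and was used as an alternative.

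Controls and spots marked as outliers were dropped. Each array was scaled by its 75th percentile of log2 intensity over 61325 probes, and a gene took the median of its spots, which gave 22550 genes or transcripts. Probes without a gene name numbered 9779. limma 3.58.1 (lmFit, eBayes, R 4.3.3) was fitted to 16 arrays (TH, GC, CC, oocyte; 4 each) with the contrast oocyte minus CC and Benjamini–Hochberg adjustment over all genes (threshold 0.05). Python 3.11.15 with pandas 2.3.3, numpy 2.4.6, and matplotlib 3.10.9 was used for tables and plots. The number of arrays limits the precision. On simulated data for this comparison, with 200 of 22550 genes changed, 26% were recovered at a log2 change of 1 and 80% at 2, with 2 and 8 unchanged genes called. The adjustment is stricter when so few genes change, and 63.7% of genes were called in the real data. The simulated rates therefore do not carry over to it, where a difference of 0.86 in HSF1 was called. Arrays 1 and 2 of each group lay on 1 slide and arrays 3 and 4 on another.

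Named genes are members of the 25 lists and cell type markers, the 12 largest differences in each direction measured in both groups, the 8 largest by bound, and the 6 largest gaps between opposed probes. The members and lists were chosen with earlier results of these data known. Alternatives were other scalings, background correction, summaries, arrays in the fit, blocks, slides, weights, and each replicate left out. Some members of the lists are not reported here by name.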

Additional observations from a re-analysis of the deposited data

Results flagged for a closer look

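In 17 of 340 groups of 4 arrays tested, 1 array lay far from the other 3 by Dixon's criterion, and about 1 in 20 groups would by chance. Oocyte replicate 2 was the lowest for ZP3 (4.57, the others 5.10 to 5.14), ZP2 (4.89, the others 5.36 to 5.44), NLRP9 (6.23, the others 6.62 to 6.67), and FST (-0.17, the others 0.33 to 0.34). Oocyte replicate 1 was the highest for GJA4 (-0.18, the others -1.36 to -1.19) and VWF (1.00, the others -1.32 to -0.95), and the lowest for COL4A1 (-1.34, the others -0.90 to -0.88) and SDHA (2.80, the others 3.41 to 3.46). Oocyte replicate 3 was the highest for TEK (1.52, the others 1.26 to 1.27).

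In CC, replicate 1 was the highest for COL4A3 (2.43, the others 2.01 to 2.04). Replicate 2 was the highest for WEE1 (-0.09, the others -0.67 to -0.64) and HSD17B1 (6.81, the others 5.78 to 5.89), and the lowest for GJA4 (-5.44, the others -5.24 to -5.22). Replicate 3 was the highest for ZFP57 (-3.70, the others -5.63 to -5.32). Replicate 4 was the lowest for G0S2 (2.39, the others 2.78 to 2.83) and GGPS1 (1.28, the others 1.42 to 1.45), and the highest for SCARB1 (4.85, the others 4.54 to 4.55). In each of these genes the outlying array stayed on its own group's side of the other group.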

How the results depend on the processing

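Counts in each direction changed with the background correction, the array weights, and oocyte replicate 2. Genes lower in the oocyte numbered 7213 as reported, 14744 by normexp (offset 50), 12482 in the deposited log2 table, 11433 with array weights, and 6612 to 11068 when 1 array was left out, the highest without oocyte replicate 2. Without oocyte replicate 2 and CC replicate 4 together, an alternative chosen after seeing the data, 7038 genes were higher, 10609 lower, and 359 list members called, as with all arrays. Of the called genes above background, 86.1% were kept under normexp and 91.8% in the deposited table. Genes detected in 1 group and on no array of the other numbered 2072, but 550 by the positive-and-significant mark (282 for the oocyte, 268 for CC). With all 4 arrays required, 788 of the oocyte and 606 of CC were left. Leaving out 1 array, with 3 arrays still needed, gave 1569 to 2240 in all, 788 to 1627 for the oocyte, and 613 to 896 for CC. Opposed probes fell from 477 to 204 genes when both had to be above background.

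The list counts stayed between 322 and 378 called in all alternatives (359 as reported). Single lists moved more: under normexp the members higher in the oocyte went from 14 to 7 for the meiotic chromosome, 10 to 6 for TGFB receptors and SMADs, and 8 to 4 for amino acid transport, and for fatty acid oxidation from 4 to 7 with 8 arrays, 8 with array weights, and 9 in the deposited table. DNA methylation genes lower in the oocyte went from 5 to 3 within slide 1. Directions turned for GPR3 (-0.68) and WT1 (-0.21) under normexp, NPPC within slide 1 (0.59), LDHA under quantile normalization (0.86) and in the deposited table (0.093), DNMT3A under normexp (-0.17) and the percentile over detected probes (-0.061), and COL1A2 under normexp (-0.25), within slide 2 (-1.13), and without CC replicate 1 (-0.24; 1.33 without CC replicate 4). The causes were not tested. Replicate numbers showed no clear pairing of the samples: same-number deviations correlated at -0.20, -0.23, 0.19, and 0.092. With 4 arrays in each group these values cannot settle whether samples of the same number were collected together. With the replicate block 7173 genes were higher and 7244 lower and 361 list members were called, and no named gene changed its call.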

Other observations

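Some genes known from endothelium and blood were read in the oocyte. TEK, a receptor of angiopoietins, stood at 1.26, 1.27, 1.52, and 1.27 in the oocyte and at -3.37, -3.96, -3.86, and -3.65 in CC, a difference of 5.04 ± 0.31 (limma adjusted p = 7.99e-10). VWF, von Willebrand factor, stood at 1.00, -1.32, -0.95, and -1.11 in the oocyte and above background on 1 CC array, at least 28.2-fold higher in the oocyte. The other endothelial genes of the list, CDH5, PECAM1, and EMCN, were not above background in either group. Of the leukocyte genes PTPRC was not, whereas CD68 and CD14 were read and were lower in the oocyte by -3.13 ± 0.47 and -2.16 ± 0.70 (limma adjusted p = 2.19e-05 and 0.0136). CD14 did not pass without CC replicate 3 (-1.55, limma adjusted p = 0.0541), within slide 1 (-1.26), or under quantile normalization (-1.65).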
